A study of Mus musculus with 27 samples.

Results

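The first wave of nascent transcripts was measured in bone marrow-derived macrophages (BMDMs), primary macrophages grown from the marrow of male C57/BL6 mice aged 6 to 8 weeks, 0.5 h after lipopolysaccharide (LPS) was added. Stimulated cells (LPS 0.5 h, 3 replicates) received LPS from E. coli EH100 (Ra) at 10 ng/ml and were set against untreated cells (3 replicates). Both groups had first been kept for 1 h with DMSO, the solvent of inhibitors given to other samples, and both carried no inhibitor and no genetic change. RNA was taken from the chromatin pellet, which holds transcripts still being made and their introns, and the values are read counts per gene that the authors normalised and rounded. Of the 45070 genes in the table, 11956 had a normalised read count of 10 or more in 3 or more of these 6 samples and were analysed, and they held 99.2% of all normalised read counts in the 6 samples. The members were 9938 protein-coding genes, 1836 non-coding RNA genes and 182 genes of other types. Of these, 352 reached the limit through the LPS samples alone and 747 through the untreated samples alone, so that a difference in them was partly set by that limit.

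LPS, a component of the outer membrane of Gram-negative bacteria, is carried by CD14 to TLR4 and its partner MD-2 (Ly96) on macrophages. The receptor signals through the adaptors MyD88 and TRIF (Ticam1) to the IkB kinases, which free NF-kB subunits from their inhibitors, to the MAP kinases, which act on AP-1 and serum response factors, and to TBK1, which acts on IRF3. The genes that answer first need no new protein and are called primary or immediate early genes, while the interferon-responsive genes follow once interferon beta has been made and sensed.

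Replicate 1 stood apart from replicates 2 and 3 in both groups. Mitochondrial transcripts held 0.797% of the normalised read counts in replicate 1 of the untreated cells against 3.34% and 3.26% in replicates 2 and 3, and 0.456% against 2.14% and 2.42% at LPS 0.5 h. Over the 595 genes with a mean of 1000 or more, the log2 ratio of replicates 2 and 3 had an SD of 0.13 in untreated and 0.17 in LPS samples, against 0.38 to 0.44 for the pairs with replicate 1. No source used here says whether replicates are separate cultures or animals, so p-values measure the spread between these samples. All 10 macrophage markers were among the members, with a summed level of 10064 to 11202 in untreated and 13752 to 14376 in LPS samples. Of the lists for 9 other cell types, those for B cells, neutrophils, NK cells, mast cells and endothelium had no gene that reached the limit. The T cell list summed to 187 to 254 in untreated and 88 to 156 in LPS samples, nearly all of it Cd28, while Cd3e and Cd3g were listed at 0 in all 6 samples. Fcgr3, on the resting macrophage list, and the interferon-responsive Ifit3 were also at 0 in untreated cells and at each LPS time. A listed 0 may therefore not mean a silent gene. The dendritic cell, fibroblast and erythroid lists lay at 37 to 96 in untreated and 37 to 146 in LPS samples, the 5 lists with no tested gene at 1 to 18 and 0 to 63, and the part of these cells in the results was not tested. In bulk samples fewer cells of a type and less RNA per cell cannot be told apart.

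After 0.5 h of LPS nascent transcripts differed from untreated cells in both directions. Of the 11956 genes, 6880 (57.5%) differed at an adjusted p under 0.05 (limma on log2 of the value + 1). Of these, 2540 (21.2%) were higher and 4340 (36.3%) were lower after 0.5 h. With a change of at least 2-fold as well, 1523 (12.7%) were higher and 2964 (24.8%) lower. Of these, 316 and 705 reached the limit of 10 through the samples of a single group, so their calls were partly set by that limit. The sizes were uneven. At least 4-fold higher were 714 genes and at least 4-fold lower 792. At least 16-fold higher were 173 and at least 16-fold lower 12. Further, 40 genes were at least 64-fold higher while no gene was that much lower. A fall is bounded by the untreated value, which had a median of 62 over all genes, and a rise is not. Large falls were thus out of reach for many genes. Fitted log2 changes of the called genes ran from -4.85 to 9.24. Without replicate 1, 2825 genes were higher and 4756 lower, without replicate 2 these were 1790 and 3088, and without replicate 3 they were 1964 and 3127. The balance of higher and lower calls depended on the scaling. The median gene had a log2 change of -0.25 with the authors' scaling, and 36.9% of calls were higher. With median-of-ratios scaling this share was 49.7%, and with each sample brought to the same total it was 18.5%, with a median of -0.75. Among the 6498 genes with a mean of at least 50 over both groups, 28.5% were higher and 32.7% lower.

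The sum of all normalised read counts went from 2539544 ± 45883 in untreated to 3619357 ± 50373 at LPS 0.5 h (mean ± SD, n = 3), a ratio of 1.43, and the groups did not overlap. Gains summed to 1469171 and losses to 389358. The totals, their ratio and these gains and losses rest on the authors' scaling to invariant genes. Bringing each sample to the same total removes the difference in totals by construction. The 10 genes with the largest gains held 11.4% of all gains and the 100 largest held 42.5%. Rasgef1b, a guanine nucleotide exchange factor gene, led with values of 444, 323 and 333 in untreated and 29441, 24336 and 23203 in LPS samples. Mapkapk2, the kinase below p38 that stabilises cytokine mRNAs, had 761, 560 and 640 and then 32664, 15346 and 18049, with replicate 1 far above the others. Plek (pleckstrin, a protein kinase C substrate) had 500, 355 and 345 and then 19850, 18992 and 20509. For each of these 3 genes, picked after their values were seen, the lowest LPS sample was more than 16-fold above the highest untreated sample. Neat1, the long RNA that builds paraspeckles, went from 9445, 6855 and 7284 to 34123, 17516 and 19177, a log2 change of 1.53 ± 0.21 (SE, adjusted p = 1.77e-05).

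Cytokine transcripts were among those with the largest changes. Of 23 cytokines on the list, 16 were tested, 15 were higher and none lower, against 21.2% higher among all genes, with a median log2 change of 3.87 (3.58 with untreated values at or under 3 set to 3). Of the 16, 7 were tested only through their LPS samples. Tnf (chr17:35199367-35202007, GRCm38), the early inflammatory cytokine, had 4, 9 and 8 normalised read counts in untreated and 1881, 2527 and 2027 in LPS samples, a log2 change of 8.12 ± 0.20 (SE, adjusted p = 7.74e-14). Il1b (chr2:129364578-129371139), the precursor of interleukin-1 beta, had 6, 9 and 24 and then 3991, 4997 and 4151, a log2 change of 8.5 ± 0.31 (adjusted p = 4.76e-12). Il1a, its close relative, had 0, 0 and 4 and then 822, 1233 and 961, so that its fitted log2 change of 9.18 ± 0.43 (adjusted p = 1.21e-10) leans on the 1 added to each value. None of these groups overlapped, and the lowest LPS sample of all 3 genes lay above 800. Tnfsf9, the ligand of the costimulatory receptor 4-1BB, went from 6, 11 and 11 to 2418, 2722 and 2870, a log2 change of 8.05 ± 0.19 (adjusted p = 7.74e-14).

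Cytokines known for later expression were present at low level. Il12b, the shared subunit of interleukin-12 and interleukin-23, had 0 in each untreated sample and 115, 118 and 107 at LPS 0.5 h (adjusted p = 2.49e-13). Il6 had 0, 1 and 0 and then 29, 20 and 14, with the highest LPS mean of its course, 388.3, at 4 h. Both Il12b and Il6 were tested only through their LPS samples, so their differences were partly set by the limit of 10. Il10, the main anti-inflammatory cytokine of macrophages, already had 177, 152 and 183 against 7, 4 and 11, a log2 change of 4.45 ± 0.24 (adjusted p = 8.73e-10). Ifnb1, which encodes interferon beta, was below the limit of 10 in 3 samples. It had 0 in each untreated sample and 10, 2 and 3 at LPS 0.5 h, and its highest values came at 1 h, with 17, 16 and 5. Il15 was the tested cytokine that was not called, with 1201, 1224 and 1340 in untreated and 1240, 1377 and 1288 in LPS samples (log2 change 0.05 ± 0.11, adjusted p = 0.695). The 7 cytokines not tested reached at most 11 in any of the 6 samples.

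Chemokines rose with them. Of 21 on the list 13 were tested, 8 of these only through the LPS samples, and 12 were higher, against 21.2% of all genes. The 13 had a median log2 change of 5.23 (5.00 with untreated values at or under 3 set to 3). Cxcl2, a neutrophil attractant, had the largest fitted change of all protein-coding genes with a mean of at least 50 in the higher group. Its values were 1, 0 and 1 in untreated and 817, 1017 and 1068 in LPS samples (log2 change 9.24 ± 0.23, adjusted p = 7.74e-14, set by the added 1). Its neighbour on chromosome 5, Cxcl1 (chr5:90891245-90893121 against chr5:90903899-90905938), was listed at 0 in untreated samples and at 112, 157 and 113 at LPS 0.5 h.

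The CC chemokine genes on chromosome 11 had unlike values. Ccl4 (chr11:83662584-83664683), an attractant of monocytes and T cells, went from 15, 15 and 12 to 1747, 1388 and 1352, a log2 change of 6.64 ± 0.19 (adjusted p = 3.98e-13). Ccl3, a related attractant, went from 30, 13 and 19 to 979, 784 and 592, a log2 change of 5.23 ± 0.25 (adjusted p = 1.79e-10). Between Ccl3 and Ccl5 lie Ccl9 and Ccl6, and the first went from 37, 54 and 84 to 529, 871 and 875. Ccl6 (chr11:83587886-83593087), beside it, had 16, 19 and 15 and then 17, 20 and 21, a log2 change of 0.20 ± 0.29 that was not called (adjusted p = 0.574). Ccl5, usually counted among the later genes, had 1, 2 and 0 in untreated and 468, 359 and 232 at LPS 0.5 h, and its mean rose on to 4645 at 2 h. Cxcl10, an interferon-responsive attractant of T cells, had 3, 3 and 2 and then 563, 496 and 518 (log2 change 7.18 ± 0.15, adjusted p = 1.94e-14), with untreated values that make the size depend on the added 1.

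**Figure D1:**
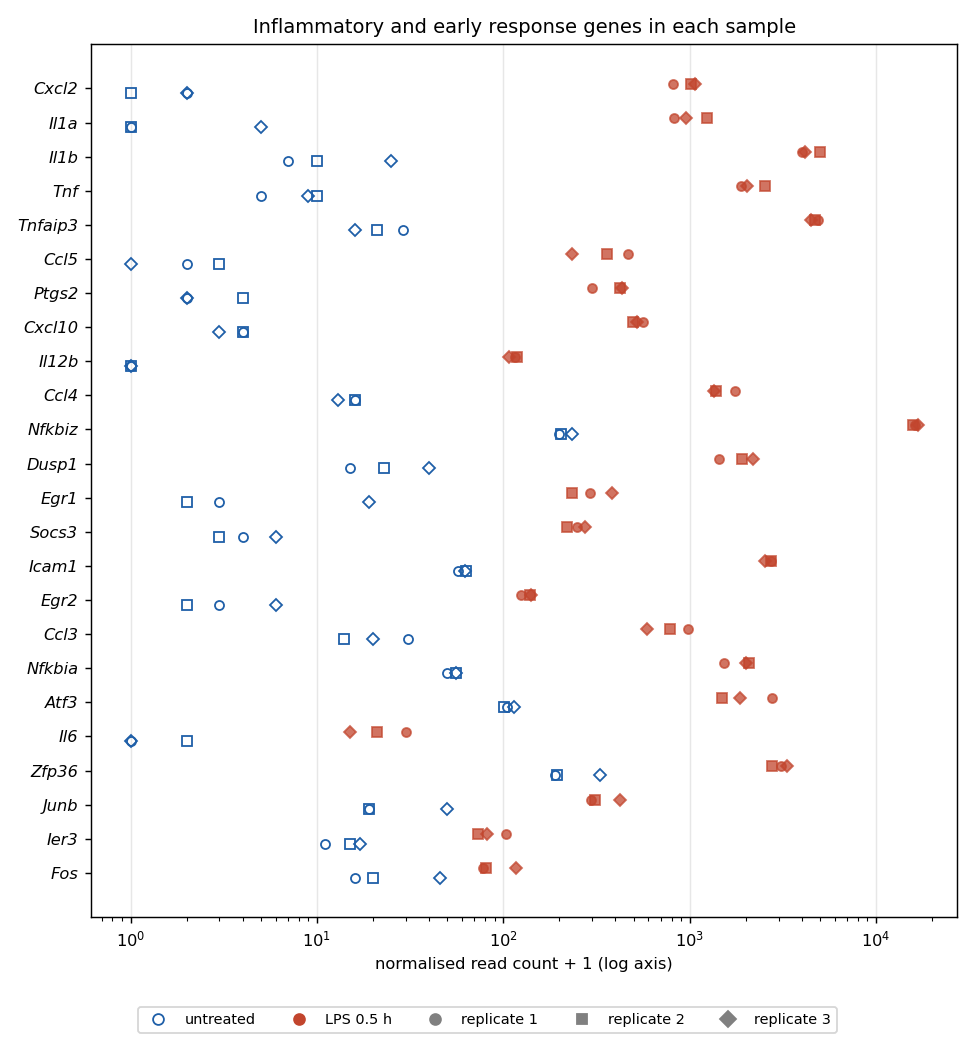
Normalised read count + 1 (log axis) of 24 inflammatory and early response genes in each of the 6 samples, with open blue symbols for untreated, filled red symbols for LPS 0.5 h and a symbol shape for each replicate. The groups overlap in none of the 24 genes, and the lowest LPS values are those of Il6, at 14 to 29.

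The NF-kB genes rose as a group together with their inhibitors. All 16 on the list were tested, 15 were higher and 1 was lower, against 21.2% and 36.3% of all genes. The median log2 change was 3.60. Among the subunits, Rel went from 402, 461 and 508 to 4814, 4832 and 4156, a log2 change of 3.33 ± 0.12 (adjusted p = 5.57e-12). Rela, the subunit most often paired with p50, changed less, from 64, 44 and 49 to 319, 262 and 284 (2.45 ± 0.16, adjusted p = 5.71e-09). Nfkb1, Nfkb2 and Relb had log2 changes of 2.93, 3.42 and 3.75. Of the 10 other regulators that were higher, Tnfaip3, Nfkbiz, Tnip3, Nfkbie, Nfkbia and Nfkbib had log2 changes of 4.88 to 7.78, above the 5 subunits, while Tnip1, Nfkbid, Bcl3 and Tnip2 had 3.72, 3.48, 1.77 and 0.48. Tnfaip3 (A20, an enzyme that edits ubiquitin chains) went from 28, 20 and 15 to 4890, 4708 and 4474, a log2 change of 7.78 ± 0.20 (adjusted p = 1.41e-13). Nfkbia, which encodes IkB alpha, went from 49, 55 and 55 to 1521, 2081 and 2006, a log2 change of 5.10 ± 0.18 (adjusted p = 4.02e-12). Nfkbiz, a nuclear IkB protein needed for a later set of genes, went from 199, 202 and 233 to 16281, 15807 and 16819, a log2 change of 6.27 ± 0.13 (adjusted p = 1.94e-14). The exception was Cyld, a deubiquitinase that restrains NF-kB, with 359, 396 and 433 in untreated and 156, 257 and 275 in LPS samples (log2 change -0.82 ± 0.18, adjusted p = 0.00127).

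Promoter sequence is shown for 5 genes with large rises and for Engase, which had the largest fall, because the kappa B sites that NF-kB binds and the AP-1 sites of Fos and Jun proteins are found close to the start of many primary genes. The 5 were picked, after their matches were seen, to show such motifs. Slc7a11, Ptgs2, Traf1, Il12b and Zc3h12c, with log2 changes of 5.61 to 7.97, hold no match in the same stretch, and Cyld and Dusp6, which were lower, hold a kappa B match. RefSeq (GRCm38.p6) gave a promoter for 8036 of the 9938 protein-coding members (80.9%), 7801 of them at the start that the counts table gives. The lines give the 160 bases before the start, 5′ to 3′ on the strand of the gene, and capitals mark a match to the kappa B motif GGANNTTCC, the AP-1 motif TGANTCA or the TATA motif TATAAA, on either strand.
Cxcl2 (chr5:90903739-90903898, + strand): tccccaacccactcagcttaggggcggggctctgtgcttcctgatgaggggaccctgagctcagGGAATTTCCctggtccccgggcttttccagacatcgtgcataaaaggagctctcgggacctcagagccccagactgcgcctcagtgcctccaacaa
Tnfaip3 (chr10:19015411-19015570, - strand): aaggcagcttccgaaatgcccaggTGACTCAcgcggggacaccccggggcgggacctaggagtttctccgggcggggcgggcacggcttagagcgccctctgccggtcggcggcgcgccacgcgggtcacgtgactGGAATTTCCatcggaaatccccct
Nfkbia (chr12:55492648-55492807, - strand): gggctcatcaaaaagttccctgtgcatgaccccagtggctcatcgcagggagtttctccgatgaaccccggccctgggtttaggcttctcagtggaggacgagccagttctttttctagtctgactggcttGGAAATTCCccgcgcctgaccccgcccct
Acod1 (chr14:103046852-103047011, + strand): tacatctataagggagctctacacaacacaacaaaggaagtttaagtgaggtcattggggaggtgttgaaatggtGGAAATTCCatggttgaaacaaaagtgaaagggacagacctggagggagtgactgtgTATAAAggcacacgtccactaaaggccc
Il1a (chr2:129309973-129310132, - strand): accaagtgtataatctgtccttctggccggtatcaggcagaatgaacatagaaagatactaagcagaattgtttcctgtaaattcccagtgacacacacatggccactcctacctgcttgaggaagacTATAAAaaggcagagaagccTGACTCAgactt
Engase (chr11:118476672-118476831, + strand): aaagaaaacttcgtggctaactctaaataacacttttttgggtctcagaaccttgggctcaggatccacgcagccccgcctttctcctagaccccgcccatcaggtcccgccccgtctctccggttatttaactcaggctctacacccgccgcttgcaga
Cxcl2, Tnfaip3, Nfkbia and Acod1 hold a kappa B match within this stretch, Tnfaip3 and Il1a an AP-1 match, and Acod1 and Il1a a TATA match, while Engase holds none of the 3. Over the whole window of 250 bases before and 50 after the start, GGANNTTCC was found in 4.7% of all 8036 promoters, in 8.7% of the 945 of genes at least 2-fold higher and in 4.1% of the 2229 of genes at least 2-fold lower. In the 104 promoters of genes at least 16-fold higher, a limit added after the values were seen, it was found in 17.3%. The stricter GGANTTTCC, which is contained in GGANNTTCC, was found in 1.3%, 4.0%, 0.9% and 13.5% of the same sets. The AP-1 motif was found in 4.7%, 7.0%, 3.7% and 15.4%, and TATAAA in 6.7%, 10.4%, 5.9% and 23.1%. The cAMP response motif TGACGTCA was found in 3.4%, 5.2%, 2.4% and 3.8%, and the CArG box of serum response factor in 1.3%, 1.8%, 0.8% and 1.0%. The interferon motif GAAANNGAA was found in 7.3%, 7.8%, 7.5% and 9.6%, and the GC box GGGCGG in 65.0%, 64.4%, 63.9% and 51.9%. These shares describe sets chosen by the values themselves and were not tested.

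Most immediate early transcription factors tested were higher after 0.5 h. Of 26 on the list 23 were tested, 19 were higher and none lower, against 21.2% and 36.3% of all genes. The median log2 change was 2.85, and 4 of the 23 were tested only through LPS samples. Egr1, a zinc finger factor of the serum response, had 2, 1 and 18 in untreated and 291, 233 and 380 in LPS samples, a log2 change of 5.93 ± 0.66 (adjusted p = 2.3e-06). Egr2 had 2, 1 and 5 and then 124, 138 and 140 (5.35 ± 0.34, adjusted p = 3.78e-09). Nr4a1, an orphan nuclear receptor, had 13, 9 and 28 and then 463, 422 and 560 (4.91 ± 0.45, adjusted p = 2.46e-07). In all 3 genes the untreated sample with the highest value was replicate 3. The AP-1 genes changed less. Fos had 15, 19 and 45 and then 77, 80 and 116 (1.88 ± 0.39, adjusted p = 0.000669), and Junb had 18, 18 and 49 and then 296, 309 and 422 (3.69 ± 0.28, adjusted p = 3.28e-08). Atf3, a repressor of inflammatory genes, had 104, 100 and 113 and then 2751, 1490 and 1859 (4.21 ± 0.23, adjusted p = 9.18e-10). Klf2, Klf10, Nr4a2 and Mafk were tested and not called, with log2 changes of 0.77, 0.56, 0.19 and -0.05.

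Families of genes that switch signals off held both higher and lower members. Of 10 MAP kinase phosphatases 9 were tested, and of these 6 were higher and 2 lower, against 21.2% and 36.3% of all genes. Dusp1, which acts on p38 and JNK, went from 14, 22 and 39 to 1443, 1916 and 2184, a log2 change of 6.25 ± 0.34 (adjusted p = 7.78e-10). Dusp2, Dusp5, Dusp8, Dusp16 and Dusp4 had log2 changes between 3.22 and 5.92. The 2 that were lower were Dusp6 and Dusp7. Dusp6 had 17, 19 and 39 in untreated and 8, 7 and 10 in LPS samples (log2 change -1.39 ± 0.44, adjusted p = 0.0133), and this call was lost without replicate 2 (adjusted p = 0.0953) and without replicate 3 (0.0979). Dusp7 had 45, 31 and 38 and then 20, 11 and 11 (-1.42 ± 0.28, adjusted p = 0.00049). Of the 11 regulators of cytokine mRNA decay, 5 were higher and 3 lower, the latter a smaller share than the 36.3% of all genes, and with equal totals the counts were 4 and 5. Zc3h12c, a relative of the ribonuclease Regnase-1, went from 220, 165 and 175 to 10187, 9069 and 8194 (5.61 ± 0.12, adjusted p = 1.94e-14). Zfp36 (tristetraprolin, which binds AU-rich elements) went from 188, 194 and 328 to 3091, 2774 and 3331 (3.73 ± 0.19, adjusted p = 4.11e-10). Its paralogue Zfp36l2 went the other way, from 138, 113 and 139 to 38, 20 and 19 (-2.36 ± 0.37, adjusted p = 6.98e-05), and Rc3h1 (Roquin-1) fell by 0.83 on the log2 scale. Hnrnpd had a log2 change of -0.42, a call lost without replicate 2 (adjusted p = 0.145) and with median-of-ratios scaling (0.308). Of 6 SOCS genes tested, Socs3, an inhibitor of gp130 signalling, rose from 3, 2 and 5 to 248, 219 and 275 and Cish from 1, 5 and 1 to 12, 11 and 16, while Socs6 fell from 652, 378 and 391 to 78, 74 and 68 (-2.63 ± 0.18, adjusted p = 7.77e-09). Socs1 reached at most 3 in the 6 samples and had a mean of 156.3 at 2 h.

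The receptor chain that senses LPS held genes called in both directions. Of its 26 genes, all tested, 13 were higher and 8 lower, against 21.2% and 36.3% of all genes, with a median log2 change of 0.23 that became -0.28 when totals were made equal. Cd14, the LPS carrier, went from 22, 22 and 30 to 310, 393 and 371 (3.81 ± 0.18, adjusted p = 1.23e-10). Tlr4 itself went from 304, 356 and 388 to 98, 187 and 155 (-1.29 ± 0.24, adjusted p = 0.000296), and its groups did not overlap. Irak2 and Myd88, which act next to the receptor, had log2 changes of 2.76 and 2.14. The adaptor Tirap went from 37, 39 and 47 to 11, 11 and 18 (-1.58 ± 0.26, adjusted p = 9.88e-05). Ticam2, Tab1, Tab3 and Ikbkg had log2 changes from -1.20 to -1.04. Chuk (IKK alpha) and Irak4 had log2 changes of -0.57 and -0.71, calls that were lost without replicate 2 (adjusted p = 0.0516 and 0.0784), with median-of-ratios scaling (0.0701 and 0.0887) and, for Irak4, without replicate 3 (0.144) and with replicates 2 and 3 averaged (0.0985). With median-of-ratios scaling 14 genes of the chain were higher and 6 lower, and with equal totals 11 and 13.

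Lists of kinases known to be induced, survival genes and surface receptors were made up almost wholly of higher genes, against 21.2% of all genes. The first was chosen for genes that rise, and all the lists were chosen with earlier results of these data known. Of the 11 induced kinases tested 10 were higher, with a median log2 change of 2.88. The exception, Sik1, a salt-inducible kinase, went from 36, 34 and 59 to 11, 19 and 17 (-1.39 ± 0.41, adjusted p = 0.00838), a call lost without replicate 3 (adjusted p = 0.0749). All 14 survival and ubiquitin regulators tested were higher, 4 of them tested only through LPS samples. Traf1, an adaptor of TNF receptors, went from 2, 7 and 6 to 697, 778 and 628 (6.99 ± 0.26, adjusted p = 7.22e-12). Bcl2l11, which encodes the death-promoting Bim, rose beside its antagonist Mcl1, with log2 changes of 3.75 and 2.47. All 19 adhesion, costimulation and surface receptor genes tested were higher, 5 of them tested only through LPS samples. Icam1, the ligand of leukocyte integrins, went from 56, 62 and 61 to 2716, 2722 and 2550 (5.46 ± 0.11, adjusted p = 1.94e-14). Olr1, a receptor for oxidised lipoprotein, went from 2, 0 and 1 to 321, 446 and 355, and Cd83, a marker of activated antigen-presenting cells, from 112, 63 and 67 to 12466, 9443 and 9327.

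Of the effector enzymes 11 of 16 were tested, 6 only through LPS samples, and 10 were higher, against 21.2% of all genes. Acod1, which makes itaconate, went from 5, 6 and 2 to 1841, 2249 and 1542 (8.53 ± 0.23, adjusted p = 1.65e-13). Slc7a11, the cystine transporter, went from 8, 1 and 1 to 831, 952 and 720 (7.97 ± 0.59, adjusted p = 2.5e-08). Ptgs2 (cyclooxygenase-2) went from 1, 3 and 1 to 298, 422 and 432 (7.24 ± 0.34, adjusted p = 1.23e-10). Nos2, the inducible nitric oxide synthase, was not yet seen. It was listed at 0 in all 3 LPS 0.5 h samples and at 1, 0 and 2 in untreated samples, and its means were 27 at 1 h, 591.7 at 2 h and 2136 at 4 h.

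Interferon-responsive genes were mixed at this time. Of 22 tested, 13 were higher, 2 lower and 7 not called, with a median log2 change of 0.91. Among all genes 21.2% were higher and 36.3% lower. Gbp5, a guanylate-binding protein, went from 22, 27 and 23 to 2368, 1811 and 1638 (6.27 ± 0.13, adjusted p = 1.94e-14), and Irf1 from 74, 63 and 65 to 1303, 742 and 862 (3.79 ± 0.28, adjusted p = 2.3e-08). Mx1, Oas1a, Irf7, Ddx58, Ifi44 and Ifit2 were among those not called, with log2 changes between -0.01 and 0.80. Stat2, a subunit of the factor that carries the interferon signal, went from 194, 225 and 245 to 134, 102 and 125 (-0.88 ± 0.19, adjusted p = 0.00087). Usp18, an inhibitor of interferon signalling, went from 43, 52 and 69 to 26, 27 and 19 (-1.14 ± 0.28, adjusted p = 0.00238), a call lost without replicate 3 (adjusted p = 0.0511). At 1 h 19 of the 22 genes were higher than at 0.5 h, against 26.2% of all genes in that comparison. In all 22 the highest LPS mean came at 2 or 4 h.

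Among transcription factors of the macrophage lineage 11 of 20 were higher and 5 lower, against 21.2% and 36.3% of all genes, and with equal totals 7 were higher and 6 lower. Tfec, a relative of Mitf found in macrophages, went from 558, 531 and 562 to 11494, 14258 and 10988 (4.46 ± 0.11, adjusted p = 1.14e-13). Irf8, which guides the monocyte lineage, went from 340, 254 and 261 to 63, 37 and 45 (-2.56 ± 0.28, adjusted p = 1.78e-06). Maf went from 736, 520 and 409 to 211, 111 and 125 (-1.91 ± 0.31, adjusted p = 9.19e-05). Cebpa, Cebpd and Tfeb, a regulator of lysosomal genes, had log2 changes of -3.03, -1.21 and -1.28, and the values of Cebpa were low, at 11 to 14 in untreated and 0 to 3 in LPS samples, which makes its size depend on the added 1. Of 23 surface receptors of resting macrophages 6 were higher, 5 lower and 12 not called, shares near or under those of all genes. The counts were 3 higher and 10 lower with equal totals, 8 and 4 with median-of-ratios scaling and 9 and 5 without replicate 1. C5ar1, the receptor of the complement fragment C5a, went from 217, 180 and 198 to 2133, 1557 and 1541 (3.12 ± 0.18, adjusted p = 1.48e-09). Trem2, a lipid-sensing receptor, went from 179, 179 and 195 to 60, 55 and 45 (-1.78 ± 0.22, adjusted p = 5.29e-06). Fcgr1, Gpr34 and Tlr8 had log2 changes of -1.64, -1.14 and -0.89. Cx3cr1, the fractalkine receptor, had 147, 221 and 279 and then 34, 76 and 83 (-1.78 ± 0.73, adjusted p = 0.0492), a call lost without replicate 2 (adjusted p = 0.16), without replicate 3 (0.158) and under 4 other settings.

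The lists of cell cycle, lipid synthesis and housekeeping genes had medians between -0.56 and 0.26. Their counts stand beside 21.2% higher and 36.3% lower among all genes. Of 17 cell cycle genes 2 were higher, 3 lower and 12 not called. Mki67, the proliferation marker, had 72, 490 and 429 in untreated and 841, 1188 and 1097 in LPS samples (2.05 ± 0.48, adjusted p = 0.00201), with replicate 1 far below the others in untreated cells. Without replicate 1, 9 of the 17 were lower, without replicate 3 none was, and 7 were in a fit that blocks on replicate. E2f2, an activator of cell cycle genes, had a log2 change of -1.78, a call lost without replicate 3 (adjusted p = 0.0548), and Pcna, the replication clamp, rose by 1.63. Of 14 genes of cholesterol and fatty acid synthesis 6 were higher and 2 lower, against 4 and 4 with equal totals. Srebf2, the master regulator of sterol synthesis, went from 230, 222 and 230 to 758, 999 and 750 (1.86 ± 0.14, adjusted p = 3.32e-08). Dhcr7 and Fdps had log2 changes of -1.70 and -1.61 on values under 30, and the call of Dhcr7 was lost without replicate 2 (adjusted p = 0.0738) and that of Fdps without replicate 3 (0.209). Of 12 housekeeping genes 4 were higher and 4 lower, against 1 and 5 with equal totals and 5 and 3 with median-of-ratios scaling. Tbp, the TATA-binding protein, went from 100, 110 and 150 to 36, 38 and 41 (-1.60 ± 0.25, adjusted p = 5.6e-05). Rplp0 had 21, 12 and 19 and then 46, 34 and 41 (1.20 ± 0.34, adjusted p = 0.00751), a call lost with equal totals (adjusted p = 0.0803) and without replicate 3 (0.0597).

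**Figure D2:**
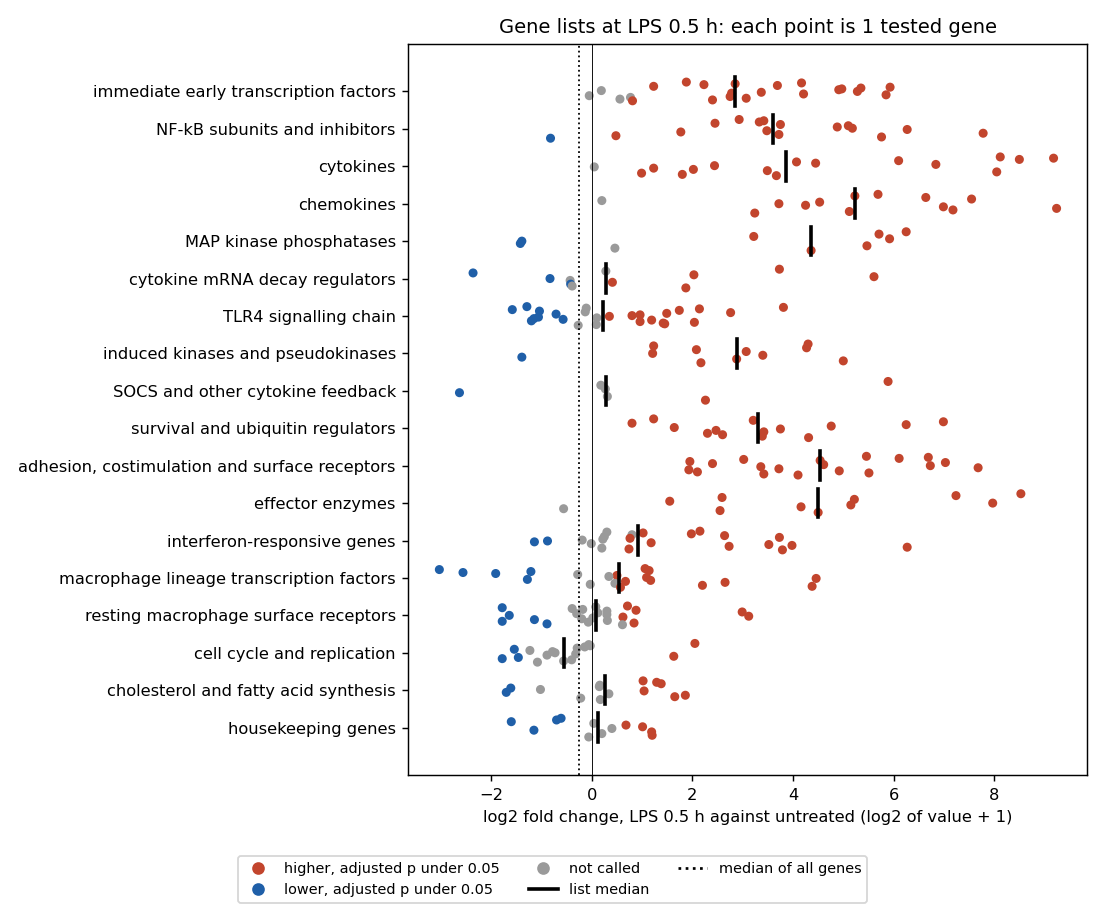
Log2 fold change at LPS 0.5 h against untreated (log2 of the value + 1) for each tested gene of 18 gene lists, coloured by call, with a thick black line at each list's median and a dotted line at the median of all genes, -0.25. List medians run from -0.56 for cell cycle genes to 5.23 for chemokines, and the TLR4 chain and the macrophage lineage factors hold points of both colours.

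The largest falls were smaller than the largest rises and came from genes of moderate level. A fall is bounded by the untreated value, and a rise is not. Engase, a cytosolic enzyme that cuts glycans from proteins, went from 83, 107 and 94 to 8, 0 and 3, a log2 change of -4.85 ± 0.65 (adjusted p = 1.39e-05). Txnip, which binds thioredoxin and limits glucose uptake, went from 193, 202 and 185 to 14, 5 and 11 (-4.24 ± 0.40, adjusted p = 3.95e-07). Abcd2, a peroxisomal fatty acid transporter, went from 229, 296 and 284 to 15, 20 and 24 (-3.73 ± 0.33, adjusted p = 1.66e-07). Hnmt, which inactivates histamine, went from 126, 116 and 152 to 6, 11 and 10 (-3.75 ± 0.34, adjusted p = 2.59e-07), and Casp2, a caspase, from 84, 88 and 128 to 3, 10 and 6 (-3.88 ± 0.35, adjusted p = 2.5e-07). The others of the 10 largest were Tgds, Aga (a lysosomal glycoprotein-degrading enzyme), Fbxo21, Clns1a and Mtarc2, with log2 changes from -4.18 to -3.73 and LPS values of 1 to 10. Of the 10, Clns1a, Tgds, Mtarc2, Aga and Fbxo21 were higher again at 1 h than at 0.5 h, Abcd2 was lower still, and the other 4 did not pass the test.

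**Figure D3:**
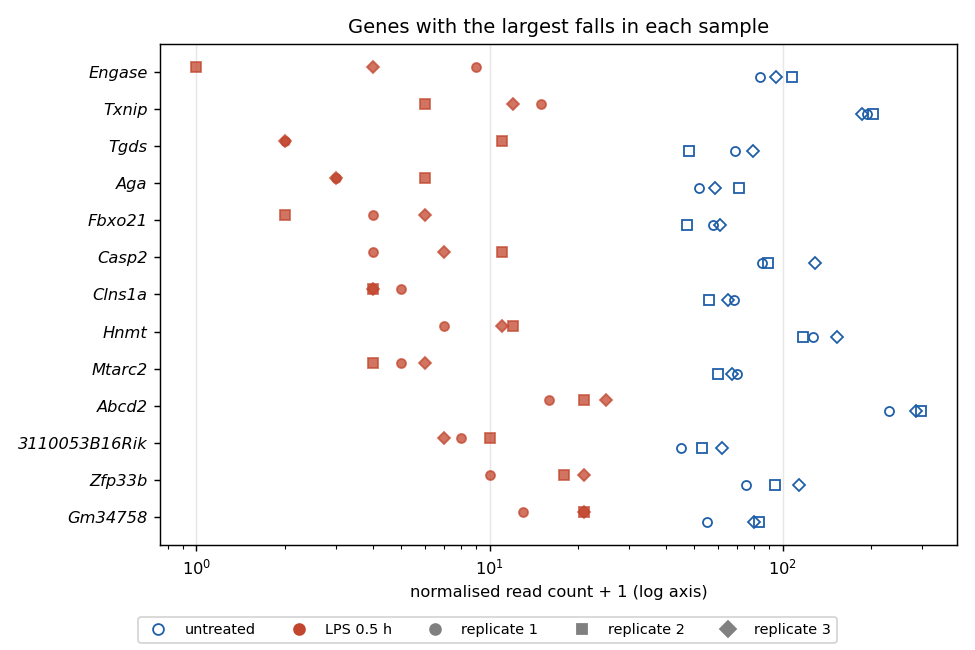
Normalised read count + 1 (log axis) in each of the 6 samples for 10 protein-coding and 3 other genes with the largest falls. Open blue symbols are untreated samples, filled red symbols are LPS 0.5 h, and the symbol shape gives the replicate. The groups overlap in none of the 13 genes, and the highest LPS value is 24, that of Abcd2 in replicate 3.

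The shares of protein-coding genes called higher or lower went with their genomic span. Of the 1438 that span over 100 kb, 28.6% were higher and 8.8% lower, with a median log2 change of 0.23. Of the 3059 that span 20 to 50 kb, 17.7% were higher and 51.1% lower, with a median of -0.66, and the 3219 of 5 to 20 kb had 16.4%, 46.7% and -0.63. The 645 genes under 5 kb had 23.7% higher and 25.7% lower, but among the 126 of them with a mean of at least 50 these shares were 49.2% and 11.1%. That mean is over all 6 samples, so a gene that rose passes it more readily. With that mean the shares were 32.2% and 31.8% at 5 to 20 kb, with a median of -0.06. They were 23.4% and 48.0% at 20 to 50 kb, and 31.0% and 9.3% over 100 kb. The medians in the 3 replicate pairs were 0.27, 0.18 and 0.21 for genes over 100 kb and -0.65, -0.65 and -0.64 for genes of 20 to 50 kb. Median-of-ratios scaling gave 45.2% higher and 4.1% lower over 100 kb and 22.1% and 42.4% at 20 to 50 kb, and without replicate 1 the shares were 37.4% and 12.4%, and 19.4% and 55.4%. Among genes with an untreated mean from 50 to 200, 48.2% were lower and 16.9% higher at 5 to 20 kb. In that range 57.1% were lower at 20 to 50 kb and 8.0% over 100 kb. At 5 to 20 kb with an untreated mean of 200 or more, 33.3% were lower and 32.1% higher. Zeb2 and Mitf, macrophage factors with spans of 133.9 and 214.3 kb, had log2 changes of 1.17 and 1.09. These classes were described and not tested.

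Of 1836 non-coding RNA genes 29.2% were higher and 18.1% lower, and of 9938 protein-coding genes 19.6% and 40.1%. The difference was not tested, and the untreated level had a median of 26 in the first and 77 in the second. Of the 1836, 322 overlapped no other annotated gene, and 33.5% of these were higher and 15.5% lower. Largest among non-overlapping ones was 1110002J07Rik, with 3, 2 and 1 in untreated and 179, 194 and 144 in LPS samples (log2 change 5.90 ± 0.47, adjusted p = 5.88e-08, with untreated values at or under 3). Gm34455 had 1, 2 and 0 and then 48, 50 and 60. It begins 1.2 kb beyond the end of Dusp1 on the same strand. Gm34746 went from 25, 43 and 46 to 843, 1305 and 862 (4.70 ± 0.24, adjusted p = 3.88e-10), with no annotated same-strand member within 10 kb upstream. Gm30073 and Gm35363 had log2 changes of 4.44 and 4.30. Of the 21 non-overlapping non-coding genes at least 4-fold higher with a mean of at least 50, 6 lay within 10 kb of the end of a same-strand member, and 4 of those neighbours were at least 4-fold higher too, a look added after the values were seen. Among genes that are not protein-coding and overlap no other, the largest falls were those of 3110053B16Rik, Zfp33b and Gm34758, with log2 changes of -2.68, -2.58 and -2.0.

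**Figure D4:**
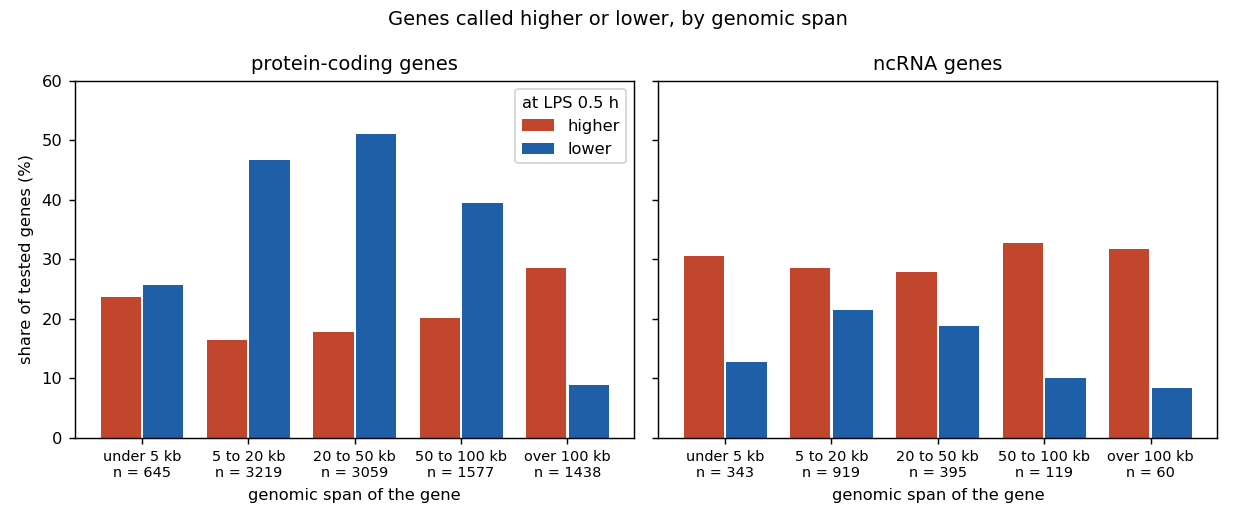
Share of tested genes (%, bars from 0) called higher (red) or lower (blue) at LPS 0.5 h by genomic span, for protein-coding genes on the left and non-coding RNA genes on the right, with the number of genes under each pair. The share lower is highest for protein-coding genes of 20 to 50 kb, at 51.1%, and 8.8% over 100 kb, while in non-coding genes the higher share exceeds the lower one in each class.

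The next step of the response was read from LPS 1 h against LPS 0.5 h (3 replicates each, the same 11956 genes). It shares the LPS 0.5 h samples with the comparison above, so the values are given side by side. Against the 0.5 h samples, 3129 genes (26.2%) had a higher and 3316 (27.7%) a lower level at 1 h, and 2195 were lower without replicate 3. Of the 1523 genes at least 2-fold higher at 0.5 h, 49.4% had the highest mean of the 4 LPS times at 0.5 h and 25% had it at 1 h. The highest mean came at 2 h in 11.9% and at 4 h in 13.7%. Among the immediate early factors, 14 of 23 were lower at 1 h than at 0.5 h and 2 higher, and 18 had their highest LPS mean at 0.5 h. Egr1 went from a mean of 301.3 to 15.67 (log2 change -4.17, adjusted p = 8.59e-05), and Nr4a1 from 481.7 to 65.33. Nfkbiz went from 16300 to 7142 (-1.19, adjusted p = 1.5e-06), while Nfkbia and Tnfaip3 did not pass the test (adjusted p = 0.48 and 0.448). Of the chemokines, Cxcl2 was lower at 1 h (-1.15, adjusted p = 0.00054) and Ccl5 higher (2.68, adjusted p = 2.71e-06). Of the 16 tested cytokines 6 were higher at 1 h and 1, Tnfsf9, was lower. Tnf had means of 2145 at 0.5 h and 1640 at 1 h and did not pass the test (adjusted p = 0.122). Irf8, lower at 0.5 h, was back at a mean of 307.7 at 1 h (2.57, adjusted p = 2.16e-06) and reached 1500 at 2 h.

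**Figure D5:**
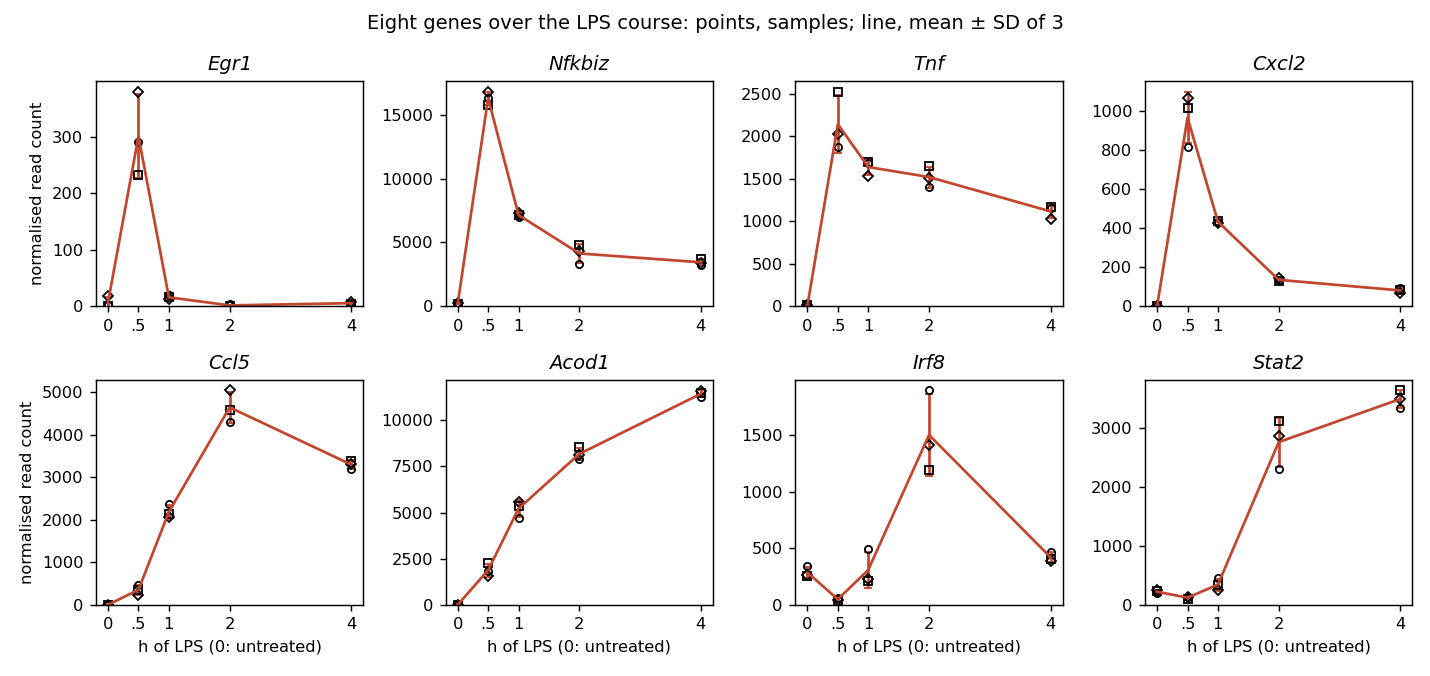
Normalised read counts of 8 genes over the LPS course (hours of LPS, 0 for untreated), with a symbol for each sample and a line through the mean ± SD of 3 replicates. Egr1, Nfkbiz and Cxcl2 peak at 0.5 h, Ccl5 and Irf8 at 2 h, and Acod1 and Stat2 are highest at 4 h, the last after a low at 0.5 h.

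To ask which of these changes another stimulus gives at the same time, LPS 0.5 h was set against cells with the cytokine IL-4 for 0.5 h (10 ng/ml, 3 replicates, the same DMSO), again with the same LPS samples. With LPS 2397 genes (20%) were higher and 4420 (37.0%) lower than with IL-4. All 16 tested cytokines, all 14 survival regulators and 15 of 16 NF-kB genes were higher with LPS. Tnf had a mean of 3.667 with IL-4 and Nfkbiz of 101.3. Several early genes also had a higher mean with IL-4 than in untreated samples, and only the means of that comparison are given here. Egr2 had a mean of 48.33 with IL-4 against 134 with LPS (log2 change 1.46, adjusted p = 0.000594) and 2.667 in untreated cells, and Myc had 140.7 with IL-4 against 69.67 with LPS. Ier3, an early stress response gene, had 55 with IL-4 and 85.33 with LPS (0.61, adjusted p = 0.028). Tfec had 4914 with IL-4 against 12250 with LPS (1.31, adjusted p = 1.69e-08). Zfp36l2 had 24.33 with IL-4 and 25.67 with LPS, a log2 difference of 0.00 (adjusted p = 0.992), against 130 in untreated cells. Tlr4 had 736 with IL-4 and 146.7 with LPS (-2.33, adjusted p = 4.08e-08). Irf8 lay between, with 131.3 with IL-4, 48.33 with LPS and 285 in untreated cells.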

How the data were processed

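Chromatin-associated RNA was prepared by lysis, a sucrose cushion and a urea and NP-40 wash of the chromatin pellet, and sequenced as single-end Smart-seq2 libraries made with random primers. The authors aligned reads to mm10 with TopHat2 2.1.1, removed multi-mapping and blacklisted reads (bedtools 2.29.2), counted reads per gene over RefSeq (GRCm38.p6) and normalised them to invariant genes. The deposited values are a score for testing, namely normalised read counts rounded to whole numbers, and not raw counts. Sequencing depth is therefore unknown, no counting interval was given, and the spread between replicates served as the error. Whether counting used strand is not given in the sources used here. Of the members, 1876 overlapped another gene on the same strand and 4769 a gene on the other strand, where reads cannot be assigned with certainty. DESeq2 is also named in the submitters' processing notes, with no role.

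Groups and replicate numbers came from the sample labels, and no sample was left out. Values were compared with limma 3.58.1 (R 4.3.3) on log2 of the value + 1, with a mean-variance trend and Benjamini-Hochberg adjustment over the 11956 genes (threshold 0.05, two-sided). The LPS comparisons used 15 samples (untreated and the 4 LPS times) and the IL-4 comparison all 27, without a replicate term. Fold changes are on that scale and understate the change of low genes, and where untreated values are at or under 3 their size depends on the added 1. Deviations of same-numbered untreated and LPS 0.5 h samples from their group means correlated at 0.662, 0.273 and 0.421, above a limit of 0.1 set for taking the numbers to pair the samples. Replicates 2 and 3 also correlated across numbers (0.328 and 0.296), so the table mainly sets replicate 1 apart, and the replicate number was run as a block as an alternative.

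Genes named were 26 fixed genes, the 10 largest rises and falls among protein-coding genes, 5 rises and 3 falls among genes that are not protein-coding and overlap no other (adjusted p under 0.05, a mean of at least 50 in the higher group, groups that do not overlap), and the extremes and exceptions of each list. Other genes named, such as Rasgef1b, Plek, Neat1, Ccl6 and further list members, were chosen after their values were seen. The members and lists were chosen with earlier results of these data known. The fit was tested on simulated data. Other scalings, pseudocounts, filters and sets of samples were tried. Tables were made with Python 3.11.15, pandas 2.3.3 and numpy 2.4.6. Some genes of the lists are counted but not reported here by name.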

Additional observations from a re-analysis of the deposited data

Results flagged for a closer look

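The change from 0.5 h to 1 h of LPS was tested directly with limma, and this test of the difference between both times singled out 3316 genes with a lower and 3129 with a higher level at 1 h. Among the 283 tested members of the 18 functional lists, 182 were higher at 0.5 h than in untreated samples. Of these, 54 were then lower at 1 h than at 0.5 h. Of the 37 that were lower at 0.5 h, 16 were then higher. Among all genes at least 2-fold higher at 0.5 h, 512 of 1523 were lower at 1 h. Of the 2964 at least 2-fold lower, 1122 were higher at 1 h, so such reversals also occurred outside the lists. The list counts had no fold limit, so their shares are not like for like with these. The 16 were Cebpa, Cebpd, Chuk, Cyld, Fcgr1, Gapdh, Hnrnpd, Irf8, Rc3h1, Socs6, Stat2, Tab3, Tbp, Ticam2, Tirap and Usp18. Both differences use the same LPS 0.5 h samples, so an error in these samples moves both in opposite directions. Groups of 3 samples were too small for a search for single outlying samples.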

How the results depend on the processing

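Over 8 counts of calls and 11 alternatives, 76 of 88 values stayed within 1.5 times the reported count. With equal totals, 1485 genes were higher and 6556 lower at LPS 0.5 h than untreated, 993 and 4753 with at least 2-fold, and 1565 were higher than with IL-4. With a mean of at least 50, by construction over fewer genes, 2127 were lower than untreated, 1004 and 1094 at least 2-fold higher and lower, 2084 and 1854 higher and lower at 1 h than at 0.5 h, and 2129 lower than with IL-4. Leaving out 1 replicate at a time gave 1790 to 2825 genes higher and 3088 to 4756 lower at LPS 0.5 h than untreated, and 2195 to 3844 genes lower at 1 h than at 0.5 h. With the replicate number as a block, 2952 genes were higher and 4850 lower. The block changed no call of the 89 named and tested genes. It moved the count of lower cell cycle genes from 3 to 7, and other list counts moved by at most 1 gene. Of 954 values of named genes, none changed direction and 25 lost their call, in 11 genes (Dusp6, Hnrnpd, Irak4, Chuk, Sik1, Usp18, Cx3cr1, E2f2, Dhcr7, Fdps and Rplp0). Of 198 list medians 6 changed sign, all with equal totals: mRNA decay regulators (-0.23), the TLR4 chain (-0.28), SOCS genes (-0.21), resting receptors (-0.43), cholesterol synthesis (-0.25) and housekeeping genes (-0.38). Causes were not tested.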

Other observations

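Genes whose symbols start with Zfp, most of which encode zinc finger proteins, were looked at after the values were seen, and their shares were not tested. Of 258 tested, 172 (66.7%) were lower and 21 higher, and 138 (53.5%) were at least 2-fold lower. Their median log2 change was -1.20, with medians of -1.25, -1.07 and -1.11 in the 3 replicate pairs. Of the 258, 223 span 5 to 50 kb, and of these 69.5% were lower, with a median of -1.32. Among the 6055 other protein-coding genes of that span 48.1% were lower, with a median of -0.62. At 1 h 59 of the 258 Zfp genes were higher and 57 lower than at 0.5 h, against 26.2% and 27.7% of all genes. Zfp36, an mRNA decay factor that shares the prefix, was among the higher ones.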
